A study of Mus musculus with 4 samples.

Results

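The highest-RNA barcodes were the 153 of 18778 cell barcodes with at least 50000 unique molecular identifiers (UMIs, each a counted RNA molecule) and 0 UMIs over Ptprc, Cd3e, Cd3d, Cd3g, Trac, Trbc1 and Trbc2, which mark leukocytes and T cells. They came from tumours that MC38 cells, a mouse colon carcinoma line, formed in 10-week-old mice, taken on day 20 with no treatment. The wild-type library held 115 of them among 7691 barcodes (1.495%, exact binomial 95% interval 1.24% to 1.79%), and the library from mice with a humanized FOXP3 gene held 38 among 11087 (0.343%, 0.243% to 0.470%). The comparison group, called mid-depth barcodes here, held 2805 wild-type and 4343 humanized barcodes with 10000 to 20000 UMIs and the same 7 genes at 0. One library was made per genotype, so genotype, mice and library cannot be told apart, no difference was tested, and every interval covers counting error only. How many animals each library pooled, and which part of FOXP3 was humanized, is not given in the sources used here.

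RNA content rises as a cell grows and passes through the cell cycle, and cells about to divide carry more RNA than newborn ones. Genes of G2 and mitosis are switched on late in the cycle, in part through CCAAT boxes, bound by the factor NF-Y, and through the cell cycle genes homology region (CHR), bound by the DREAM and MuvB complexes. MC38 tumours are a transplanted model that grows quickly.

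Depth was what chose these barcodes and is given as a description. The wild-type ones held 50074 to 157958 UMIs with a median of 58656, against a median of 14708 in mid-depth barcodes. The humanized ones held 50368 to 115306 with a median of 52733, against 13935. The median number of genes detected was 6859 against 3451 in the wild-type library and 6378.5 against 3200 in the humanized library. Just inside the threshold stood wild-type barcodes of 50074, 50199 and 50619 UMIs and humanized ones of 50368, 50390 and 50472. Just outside stood wild-type barcodes of 49941, 49902 and 49861 and humanized ones of 49845, 49401 and 49377. The barcodes made up 5.42% of all wild-type UMIs and 1.49% of all humanized UMIs, out of 134214718 and 147738781. Without the condition on the 7 genes, 10 more wild-type and 5 more humanized barcodes of this depth would have entered, each with 1 such UMI. Droplets with more than 1 tumour cell were not called here, and they cannot be told apart from single large cells. Each barcode name ends in a number whose meaning is not given in the sources used here. That number averaged 2.51 ± 1.17 (SD, 115 barcodes) against 2.42 ± 1.36 in the wild-type library and 2.87 ± 1.76 (SD, 38 barcodes) against 2.61 ± 1.31 in the humanized library. Names ending in 1 were 17.4% against 30.9% of wild-type and 18.4% against 23.2% of humanized barcodes.

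The labels call these samples immune cells, and the transcripts of these barcodes did not follow that label. The selection set Ptprc, which marks leukocytes, to 0. The low sums of leukocyte markers below are therefore not independent of the selection and are given as a description. Summed over the 16 T cell markers, 7 of which the selection set to 0, the level was 0.023 per 10000 UMIs in the highest-RNA barcodes of each library. The 18 macrophage and monocyte markers summed to 0.144 (wild-type) and 0.082 (humanized), with Adgre1, C1qc, Mrc1, Fcgr1, Ccr2 and Spi1 among those at 0 in both. The 7 neutrophil markers summed to 0.012 and 0, and the 4 mast cell markers were at 0. A gene at 0 may still have a level of up to 0.00412 (wild-type) or 0.0137 (humanized), the limits that 0 counts allow. Foxp3, the gene that was humanized, had 0 UMIs in these barcodes of both libraries, against 5 and 6 in the more numerous UMIs of the mid-depth barcodes. The 9 natural killer cell markers summed to 1.16 and 1.47, of which Klra4 gave 1.15 and 1.46, while Ncr1, Klrb1c, Klra8, Prf1, Gzma and Klrd1 were at 0. The 23 listed tumour cell markers summed to 321 and 387 per 10000, against 303 and 358 in mid-depth barcodes. Most of that came from the small calcium-binding protein gene S100a6, at 196 and 230 per 10000, the galectin gene Lgals1, at 58.6 and 76.2, and the intermediate filament gene Vim, at 22.9 and 33.7. These are not restricted to tumour cells, and the epithelial markers Krt19, Epcam, Cldn4, Cldn7 and Vil1 were at 0 in both libraries. Other listed epithelial markers had few UMIs: Cdh1 9 (wild-type) and 8 (humanized), Lgals4 5 and 1, and Cdx1 1 and 2. Krt8, Krt18 and Krt7 had 2, 3 and 1 wild-type UMIs and 0 humanized ones. The Cdh1 level was 0.0124 against 0.0243 in wild-type mid-depth barcodes and 0.0364 against 0.0253 in humanized ones. The barcodes are therefore named by their RNA content. Fibroblast markers (14 genes) summed to 1.30 and 1.64 against 2.00 and 2.22 in mid-depth barcodes, with Lum, Thy1, Postn, Fap and Dpt at 0. Their part in the results was not tested.

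Promoter sequence is shown first for genes on which the results turn, because all of the 15 named higher genes except H1f4, Dbf4 and Pimreg are on the G2 and mitosis list. The windows are the 120 bases before the annotated start, from RefSeq promoters on GRCm38.p6, a build other than that of the counts, and read 5′ to 3′ on the gene's strand. Capitals mark TTTGAA, the CHR, and CCAAT, on either strand, so that TTCAAA and ATTGG are the same motifs read backwards. Top2a lies at chr11:99024190-99024309, minus strand. Cdk1 lies at chr10:69352913-69353032, minus strand. Prc1 lies at chr7:80294356-80294475, plus strand, the second of its 2 annotated windows. Ccnb1 lies at chr13:100786487-100786606, minus strand. Dbf4, at chr5:8422717-8422836, minus strand, is shown because neither motif was found in its window.
Top2a: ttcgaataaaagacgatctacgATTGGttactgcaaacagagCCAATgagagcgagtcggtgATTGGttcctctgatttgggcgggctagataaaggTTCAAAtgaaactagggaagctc
Cdk1: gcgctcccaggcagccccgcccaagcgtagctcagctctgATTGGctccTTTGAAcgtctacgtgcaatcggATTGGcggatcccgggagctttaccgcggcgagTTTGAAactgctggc
Prc1: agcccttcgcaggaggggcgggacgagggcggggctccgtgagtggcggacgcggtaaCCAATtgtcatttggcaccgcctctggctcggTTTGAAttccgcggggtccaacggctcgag
Ccnb1: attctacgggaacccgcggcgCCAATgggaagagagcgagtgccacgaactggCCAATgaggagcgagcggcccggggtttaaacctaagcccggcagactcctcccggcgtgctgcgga
Dbf4: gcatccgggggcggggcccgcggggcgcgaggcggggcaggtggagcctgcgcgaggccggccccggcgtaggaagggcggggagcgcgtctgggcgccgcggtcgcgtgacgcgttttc

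Over the 250 bases before the start, CCAAT on either strand was found in 33.8% of all 32851 promoter windows, in 35.4% of windows of the genes measured, and in 59.8% of windows of the genes higher in the highest-RNA barcodes. TTTGAA was found in 16%, 10.4% and 27.6% of the same sets, and both motifs in 5.55%, 3.93% and 19.5%. In the G2 and mitosis list, 79.4% of windows held CCAAT and 39.7% held TTTGAA. In the genes lower in the highest-RNA barcodes, 34.1% held CCAAT, 2.44% held TTTGAA and 0 held both. These shares describe letters in a window. In the windows printed, no CCAAT match overlapped a TTTGAA match. Promoters were found for 161 of the 193 higher genes, 35 of the 53 lower genes and 8459 of the 10880 measured.

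Of 10880 genes with at least 100 UMIs in each library, 193 (1.77%) were at least 1.5-fold higher per 10000 UMIs in the highest-RNA barcodes of both libraries, and 53 (0.487%) were at least 1.5-fold lower, with intervals excluding no difference. The 193 and 53 are called higher and lower below. Scaled by the median of gene ratios in place of total UMIs, 142 were higher and 92 lower. Over all measured genes the median log2 ratio of levels, highest-RNA over mid-depth, was 0.05 in each library. Each barcode also held about 4 times the RNA of a mid-depth barcode, 3.99 times in the wild-type and 3.78 times in the humanized library by median UMIs. By mean UMIs the ratios were 4.27 and 4.05. A gene at an unchanged level per 10000 had 4.27 and 4.05 times the molecules per barcode.

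Genes of G2 and mitosis stood furthest from the rest. Of 64 measured members of the list, 50 were higher and 0 lower, with median log2 ratios of 0.99 (wild-type) and 0.87 (humanized). Top2a encodes DNA topoisomerase II alpha, which untangles chromosomes before mitosis. Its level was 4.05 per 10000 UMIs (2946 UMIs) against 1.37 in wild-type mid-depth barcodes and 3.77 (827 UMIs) against 1.43 in humanized ones, log2 ratios of 1.56 and 1.40. Among single barcodes it ran from 0 to 18.1 per 10000 with a median of 3.69 in the wild-type library and from 0 to 9.29 with a median of 3.68 in the humanized library. Only 5 of 115 and 1 of 38 held none.

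The kinases and cyclin that drive entry into mitosis stood high in both libraries. Cdk1, the mitotic kinase, was at 1.93 against 0.983 per 10000 in the wild-type library and at 2.37 against 1.12 in the humanized library. Its cyclin partner Ccnb1 was at 0.83 against 0.331 and 0.897 against 0.46. Log2 ratios were 1.44 and 1.17 for Plk1, a mitotic kinase, and 1.13 and 1.03 for Aurka, a kinase of the spindle poles. One humanized barcode held 19.3% of the Plk1 UMIs of that library's highest-RNA barcodes, and single barcodes likewise held 17.9% for Cenpf, 17.8% for Prc1, 13.6% for Cenpe, 12.9% for Aurka and 11.6% for Nusap1. Dbf4, which activates the kinase that fires replication origins, had log2 ratios of 0.98 and 1.12.

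Spindle and chromosome genes formed the rest of the named higher genes. Cenpe, a kinetochore motor, had log2 ratios of 1.37 and 1.5, and Cenpf, another kinetochore protein, 1.27 and 1.2. Prc1, which bundles microtubules of the central spindle, had 1.28 and 1.07, Nusap1, a spindle-associated protein, 1.08 and 1.04, and Tpx2, which activates Aurka, 0.90 and 0.90. Mki67, the proliferation antigen Ki-67, had 1.26 and 0.92. Pimreg had 1.05 and 0.91 and Cdca3 0.95 and 0.90. The linker histone gene H1f4 had 1.03 and 1.30. Per barcode medians stayed above 0 for all 15 of these genes, although 31 of 115 and 12 of 38 barcodes held no Cenpe.

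**Figure D1:**
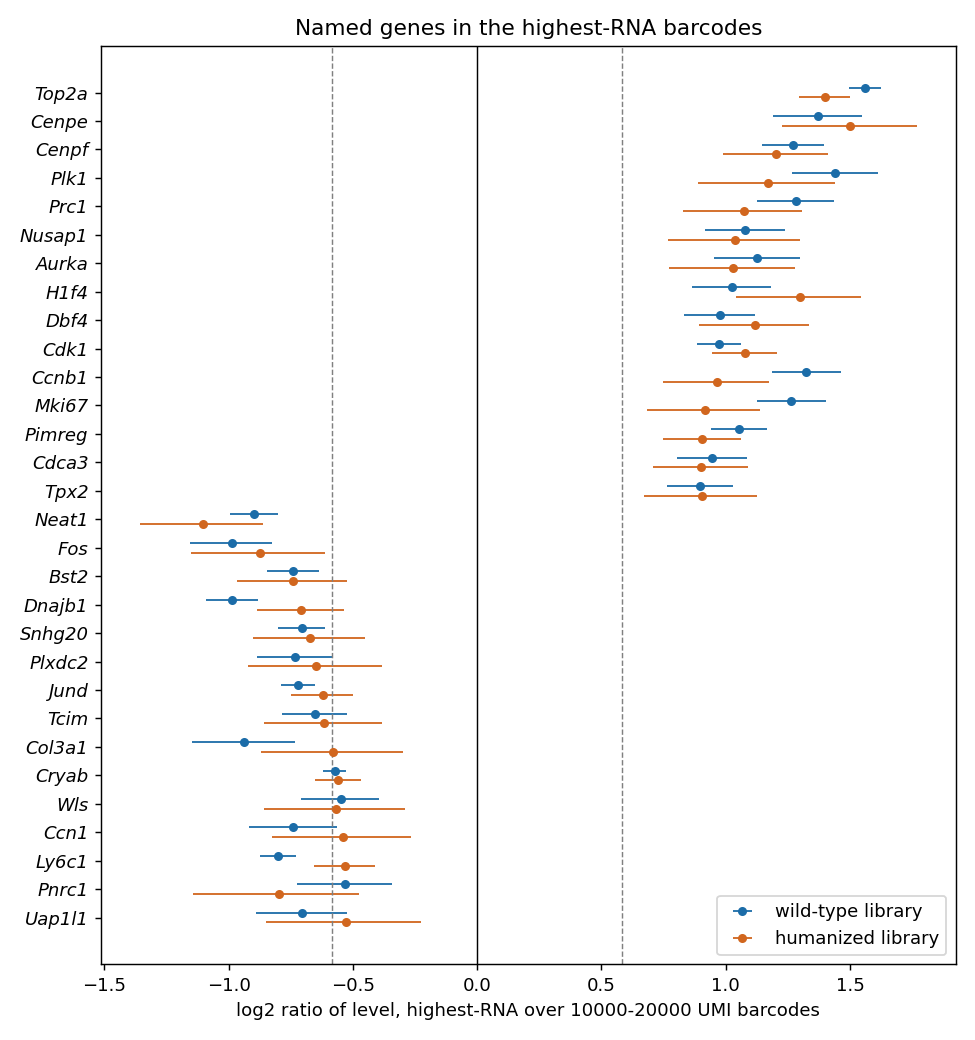
Log2 ratio of the level per 10000 UMIs in the highest-RNA barcodes over mid-depth barcodes (x) for the 15 named higher and 15 named lower genes (y), with a point and 95% counting interval per library; dashed lines mark 1.5-fold. Top2a is at 1.56 and 1.40, and Neat1 is at -0.90 and -1.10.

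Fewer genes of earlier cycle phases were called. Of 57 S phase genes, 8 were higher and 0 lower, with medians of 0.33 and 0.22. They were Blm, Ccne2, Chaf1a, Clspn, E2f8, Exo1, Rrm1 and Rrm2, which act in DNA replication, repair and the supply of nucleotides. Ccne2 had log2 ratios of 1.04 and 1.19 on 77 and 23 UMIs. Mcm7, a replication helicase subunit, had 0.24 and -0.01 and was not called. None of 25 G1 and cell size control genes was called. Of 18 replication-dependent histone genes, 6 were higher, among them H3c3 (1.39 and 2.09) and H2ac20 (1.32 and 1.78). Only H2ac6 was lower (-0.73 and -0.68). Medians of these 18 were 0.18 in each library, with 12 (wild-type) and 10 (humanized) genes above 0. The summed level of the whole histone list was nevertheless below that of mid-depth barcodes in both libraries, with log2 ratios of -0.17 and -0.08. Of 31 nuclear pore and import genes, Kpna2 (1.28 and 1.46), Rangap1 (0.90 and 0.60) and Nup205 (0.80 and 0.60) were higher, and the list's medians were 0.37 and 0.34. Among 43 actin, tubulin and adhesion genes, Tuba1c (0.80 and 0.79) and Tubb6 (0.89 and 0.66) were higher.

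The machinery of protein and RNA synthesis was not called in either direction. None of 82 cytosolic ribosomal protein genes was called, with medians of -0.05 and -0.07, nor any of 40 ribosome biogenesis genes, 35 translation factors, 48 splicing genes, 43 RNA polymerase II and Mediator genes, 33 proteasome genes or 75 nuclear-encoded respiratory chain genes. Medians of these lists lay between -0.07 and 0.19. Aminoacyl-tRNA synthetase genes, which charge tRNAs, had medians of 0.37 and 0.22 with 0 of 20 called. Ncl, the nucleolar protein nucleolin, was at 13.02 against 9.37 per 10000 and 11.2 against 8.33, log2 ratios of 0.48 and 0.43, below the fold for a call. Glycolysis and hypoxia genes had medians of -0.14 and -0.16 with 0 of 32 called.

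Type I interferon-stimulated and immediate-early genes had medians below 0 in both libraries. Of 27 type I interferon-stimulated genes, 6 were lower and 0 higher, with medians of -0.43 and -0.27. Bst2, which tethers budding viruses to the cell surface, was at 1.13 against 1.88 per 10000 in the wild-type and 0.783 against 1.31 in the humanized library. Isg15, a ubiquitin-like protein, had log2 ratios of -1.55 and -1.54 on 49 and 9 UMIs, and 4 of the 9 humanized UMIs, 44.4%, came from 1 barcode. Ifit3, Irf7, Rsad2 and Ifit1 were the others, and Ifit1 had 10 wild-type and 0 humanized UMIs. Cxcl10, an interferon-induced chemokine, was lower on 30 and 6 UMIs. Of 27 immediate-early genes, Fos (0.444 against 0.881 and 0.537 against 0.986 per 10000) and Jund (2.55 against 4.19 and 2.46 against 3.78) were lower. Both are subunits of the AP-1 transcription factor.

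Neat1, the noncoding RNA that builds nuclear paraspeckles, was at 1.29 against 2.41 per 10000 in the wild-type library and 0.633 against 1.36 in the humanized library. Its log2 ratios were -0.90 and -1.10. Dnajb1, a heat-shock co-chaperone, had -0.99 and -0.71, and the noncoding RNA Snhg20 -0.71 and -0.67. Plxdc2 had -0.73 and -0.65 and Tcim -0.65 and -0.62. The other 7 named genes were below the fold for a call in at least 1 library: Col3a1 (-0.94 and -0.58), Cryab (-0.57 and -0.56), Wls (-0.55 and -0.57), Ccn1 (-0.74 and -0.54), Ly6c1 (-0.80 and -0.53), Pnrc1 (-0.53 and -0.80) and Uap1l1 (-0.70 and -0.53). Col3a1 and Pdgfrb, which was called lower, are also fibroblast markers and are themselves part of the summed fibroblast level given above. Of 6 measured fibroblast markers, 1 in each library had a ratio above 0. These were Pdgfra in the wild-type library (0.0371 against 0.0359 per 10000, on 27 UMIs) and Col1a1 in the humanized library (0.219 against 0.119, on 48 UMIs). A single humanized barcode held 66.7% of those Col1a1 UMIs.

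Cycle position was then read at equal depth, with every barcode thinned to 10000 UMIs. The summed UMIs of the G2 and mitosis list had a median of 60 (range 4 to 158) in the wild-type highest-RNA barcodes against 18 (1 to 219) in mid-depth ones, and of 64.5 (6 to 125) against 26 (1 to 222) in the humanized library. The ranges overlapped throughout. Above the 75th percentile of mid-depth barcodes, called G2/M-high, stood 69 of 115 wild-type barcodes (60.0%, 50.4% to 69.0%) against 24.5% of mid-depth ones, and 21 of 38 humanized barcodes (55.3%, 38.3% to 71.4%) against 24.9%. The percentile itself sets the mid-depth shares. S-high barcodes, defined likewise, were 40.0% against 23.6% and 34.2% against 23.6%. Neither list was high in 34 of 115 (29.6% against 63.6%) and 11 of 38 (28.9% against 59.3%). With the 90th percentile in place of the 75th, neither list was high in 61.7% against 82.0% and 71.1% against 81.1%. Within 2 UMIs of the G2/M-high threshold lay 7 wild-type and 1 humanized barcodes. At 10000 UMIs the median number of genes detected was 2900 against 2773 and 2761.5 against 2649.

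**Figure D2:**
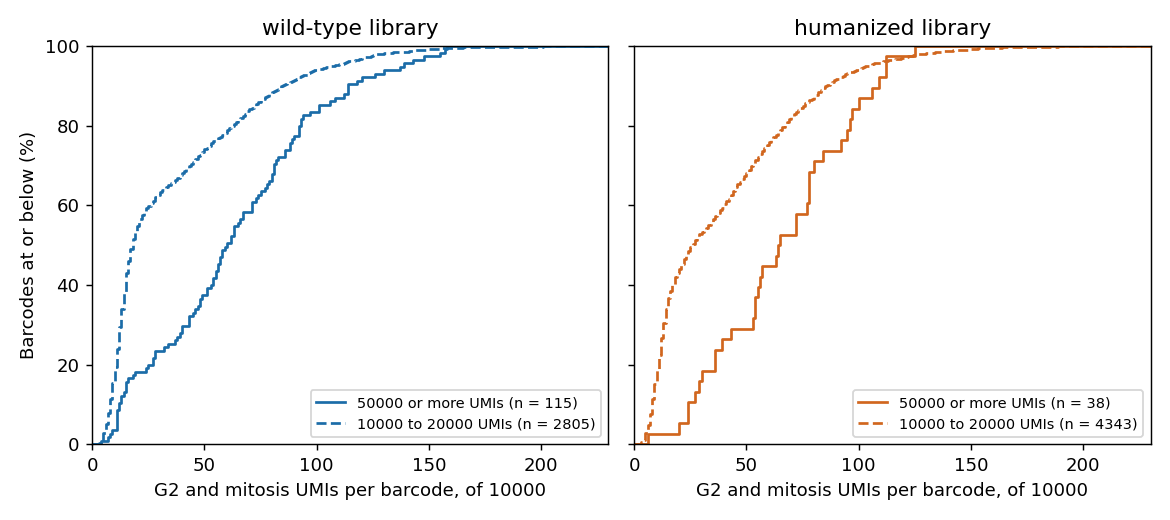
Share of barcodes (y, percent) at or below a given number of G2 and mitosis UMIs (x) after thinning to 10000 UMIs, by library, for the highest-RNA (solid) and mid-depth (dashed) barcodes. The medians are 60 against 18 in the wild-type and 64.5 against 26 in the humanized library.

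Levels differed with depth below the threshold as well. The summed G2 and mitosis level in wild-type barcodes was 35.9 per 10000 at 10000 to 20000 UMIs, 52.1 at 20000 to 35000, 60.5 at 35000 to 50000, 63.8 at 50000 to 75000 and 69.0 above. In humanized barcodes it was 39.8, 53.5, 58.5, 63.8 and, in 3 barcodes, 92.2. On either side of the threshold, 45000 to 50000 against 50000 to 55000 UMIs, it was 60.9 and 60.8 in the wild-type and 58.6 and 61.4 in the humanized library. The S phase level went from 18.9 to 24.9 between the first 2 wild-type bands and was 24.7 at 50000 to 75000. The type I interferon-stimulated level went from 4.88 to 3.51 over the same bands in the wild-type and from 3.52 to 2.36 in the humanized library. It was 5.05 in the 3 deepest humanized barcodes, of which the barcode of 76843 UMIs was at 11.8.

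**Figure D3:**
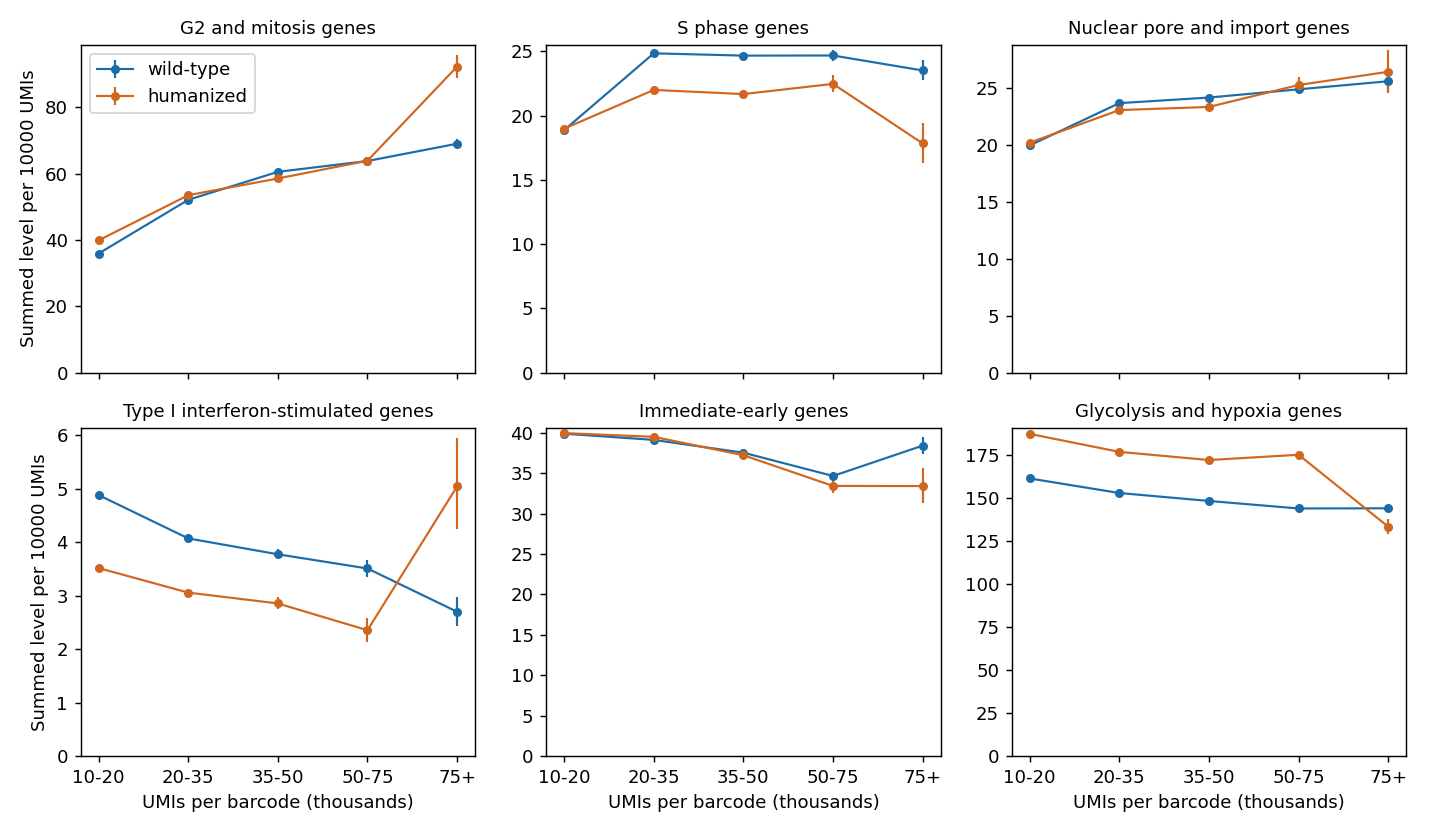
Summed level per 10000 UMIs (y) of 6 gene lists in barcodes grouped by total UMIs (x), by library, with 95% counting intervals. G2 and mitosis genes go from 35.9 to 69.0 in the wild-type library, and the last humanized point holds 3 barcodes.

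Barcodes were next compared within classes of cycle score, which are themselves cut on the G2 and mitosis and S phase genes. In the G2/M-high barcodes (69 wild-type and 21 humanized) against G2/M-high mid-depth barcodes, 13 of 8536 genes (0.152%) were higher and 31 (0.363%) lower, and 0 of 64 G2 and mitosis genes were called, with medians of 0.06 and 0.05. Of the 193 and 53, 177 and 31 were measured in this class, and 6 and 13 were called here too. Top2a had log2 ratios of 0.52 and 0.60, and Cdca3 turned to -0.05 and -0.02. The leading higher genes there were Abcb1b, a multidrug efflux pump (0.63 and 0.84), Nmt1, which attaches myristate to proteins (0.62 and 0.85), and Itga3, an integrin (0.75 and 0.62). Fos (-1.01 and -0.82), Neat1 (-0.78 and -0.84), Bst2 (-0.84 and -0.66) and Dnajb1 (-1.01 and -0.65) were lower there too. The chemokine gene Ccl2 (-0.75 and -1.16) and Spp1, which encodes osteopontin (-0.73 and -0.89), were also lower.

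Among barcodes with neither list high (34 and 11), 73 of 9799 genes (0.745%) were higher and 26 (0.265%) lower. Of the 193 and 53, 119 and 52 were measured in this class, and 37 and 10 were called here too. Top2a was at 0.93 against 0.31 per 10000 and 1.47 against 0.50, log2 ratios of 1.60 and 1.56, and 16 of 45 measured G2 and mitosis genes were higher. Hmgb2, a chromatin protein, had 0.88 and 1.30, Birc5, which encodes survivin, 1.01 and 1.35, and Pcna, the replication clamp, 0.66 and 0.68. Ltbp2, a matrix protein gene outside the cycle lists, had 0.94 and 0.73. Neat1 (-0.92 and -1.30) and Dnajb1 (-0.92 and -1.06) were lower in this class as well.

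Between genotypes, 7388 genes had at least 100 UMIs summed over the highest-RNA barcodes of both libraries together. Those barcodes held 7272765 wild-type and 2195446 humanized UMIs. Genes high in the wild-type library therefore passed this minimum more readily, which favours lower calls over higher ones. At least 2-fold, 13 (0.176%) were higher and 187 (2.53%) lower in the humanized library. Of these 200, 194 had the same sign between mid-depth barcodes, where 28 were also 2-fold apart. The same shares over all 7388 genes were not computed. Their median log2 ratio was -0.10 in the highest-RNA and -0.11 in mid-depth barcodes, so a negative sign was the more common one in both. Many of the lower calls rested on a single barcode. One wild-type barcode of 63276 UMIs was the highest of its library for 86 of the 187 genes, and 18 of the 187 drew over 50% of their wild-type UMIs from 1 barcode. It held 249 of 261 wild-type UMIs of Mei1, a meiosis gene, 232 of 268 of Gm26885, 158 of 177 of Zfp286 and 128 of 132 of Bmp8a, which had 2, 1, 4 and 0 humanized UMIs. Leaving that barcode out gave 139 lower genes, 134 of them among the 187, of which 171 still had at least 100 UMIs.

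Adam2 and Apobec1, which encodes a cytidine deaminase, remained lower in humanized barcodes without it. Adam2 stood at 3.01 per 10000 in wild-type and 0.319 in humanized highest-RNA barcodes, with 1300 of its 2192 wild-type UMIs in that 1 barcode. Without it and 1 humanized barcode named next, the levels were 1.24 and 0.288, a log2 ratio of -2.10. Apobec1 was at 3.05 and 0.835 on the same terms, -1.87. Gbp2, an interferon-induced GTPase gene, was the leading higher gene, with 112 humanized UMIs of which 100 came from 1 barcode of 76843 UMIs. Without that barcode and the wild-type barcode of 63276 UMIs, the Gbp2 level was 0.0566 in the humanized against 0.0888 in the wild-type library. Higher genes that kept their call without both barcodes included the chemokine gene Cxcl1 (2.22, or 1.41 without its own highest barcode in each library, which held 48.1% of the humanized UMIs), Idi1 (1.30) and Fdft1 (1.2) of sterol synthesis, and Idh1 (1.26), isocitrate dehydrogenase. The counts of genes higher and lower than in mid-depth barcodes were 176 and 60 without both, with 167 of the 193 and 49 of the 53 kept.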

How the data were processed

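Single cells of MC38 tumours were enriched for immune cells on a density gradient and captured in droplets with a DNBelab C kit, per the labels' protocols. The authors deposited raw UMI counts per gene and barcode for a cDNA library of each genotype, written by PISA 1.0 per the file headers, and the submitters' processing notes name GRCm39. No aligner, gene annotation or cell-calling rule is given in the sources used here. The oligo libraries were not used here. Barcode names are running numbers, so barcodes shared between libraries could not be counted.

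Counts were summed over barcodes and scaled to a level per 10000 UMIs. Ratios have exact conditional 95% intervals, shares exact binomial ones, and PCR and cell-to-cell variation are outside both. Named genes were the 15 highest and 15 lowest by the smaller absolute log2 ratio of both libraries, at a level of at least 0.5 and with at most 10% of a gene's UMIs, summed over highest-RNA and mid-depth barcodes of a library, in 1 barcode. From each list up to 4 genes were named, by level and by ratio, and further called genes were named after their values were seen. The members and lists were chosen with earlier results of these data known. No doublet caller was run. On simulated counts for 10880 genes, 42 of 50 genes changed 2-fold were recovered and 3 of 10680 unchanged genes were called. The simulated counts held counting error only, so differences between barcodes, such as 1 barcode with most of a gene's UMIs, were not simulated. They do not give the rate of false calls in these data. Python 3.11.15, numpy 2.4.6, scipy 1.17.1, pandas 2.3.3 and matplotlib 3.10.9 were used.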

Additional observations from a re-analysis of the deposited data

Results flagged for a closer look

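For 5 gene lists the median log2 ratio, highest-RNA over mid-depth barcodes, had opposite signs in the wild-type and humanized libraries. The difference was not tested, with 1 library per genotype. Interferon gamma and guanylate-binding protein genes stood at -0.51 (wild-type) and 0.15 (humanized), and 1 humanized barcode held 100 of 112 Gbp2 UMIs. MHC class I presentation genes stood at -0.19 and 0.066, mitochondrially encoded genes at -0.13 and 0.080, commonly used reference genes at -0.12 and 0.041, and collagen and matrix genes at 0.073 and -0.11. By log2 ratio of the summed level, only mitochondrially encoded genes had opposite signs (-0.22 and 0.064). The interferon gamma list stood at 0.098 and 0.48 and MHC class I genes at -0.26 and -0.14. Reference genes stood at -0.049 and -0.029 and collagen and matrix genes at -0.082 and -0.20. Of single genes, 8 of 10880 passed 1.5-fold in opposite directions, among them Col1a1 (-1.83 and 0.88, with 66.7% of the humanized UMIs in 1 barcode) and Rev3l, a DNA polymerase subunit (-1.25 and 0.84).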

How the results depend on the processing

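The 193 higher and 53 lower genes were recounted under other settings, and the cause of each change was not tested unless named. A deeper comparison group of 20000 to 50000 UMIs gave 6 and 10 genes, and one of 5000 to 10000 UMIs gave 461 and 92. A call at a smaller fold gave 586 and 203, and a call at 2-fold gave 40 and 12. Barcodes with no high cycle score gave 73 and 26. Median-of-ratios scaling gave 142 and 92, and members of 75000 or more UMIs gave 214 and 31. Settings added after seeing the data were G2/M-high barcodes only, with 13 and 31, and names ending in 1, with 71 and 23 from 20 wild-type and 7 humanized barcodes. Dropping the highest-RNA barcode with the most UMIs of each gene gave 119 and 139. Mid-depth barcodes were left whole, so high counts were removed from 1 side of the ratio only. The share of barcodes in the selection was 4.45% and 1.18% (wild-type, humanized) from 40000 UMIs and 0.208% and 0.0271% from 75000. Genes 2-fold higher and lower in the humanized library numbered 35 and 93 from 75000 UMIs and 45 and 491 with at least 20 UMIs per gene. The G2/M-high share was 27.8% and 26.3% above the 90th percentile, against 9.80% and 9.85% of mid-depth barcodes, and 100% in the 3 humanized barcodes from 75000 UMIs. Of 12 lists with medians beyond 0.1 in both libraries, 26 of 288 medians changed sign. With the comparison group of 20000 to 50000 UMIs these were S phase genes (-0.029 wild-type, -0.039 humanized), splicing genes (-0.0065 wild-type), long noncoding RNAs (0.025 wild-type) and sterol genes (-0.0035 wild-type). From 75000 UMIs they were S phase (-0.017 humanized), tRNA synthetase (-0.0013 humanized), long noncoding RNA (0.0086 humanized), sterol (-0.30 wild-type, -0.43 humanized), interferon-stimulated (1.40 humanized) and immediate-early genes (0.033 wild-type). The humanized values there rest on 3 barcodes, 1 of which had a summed interferon-stimulated level of 11.8 per 10000. With no high cycle score they were replication-dependent histone (-0.043 wild-type), tRNA synthetase (-0.096 humanized) and long noncoding RNA genes (0.025 humanized). In G2/M-high barcodes they were S phase (-0.14 wild-type, -0.078 humanized), histone (-0.093 wild-type), long noncoding RNA (0.017 wild-type), sterol (-0.11 wild-type) and interferon-stimulated genes (0.0019 humanized), besides Cdca3 (-0.051 wild-type, -0.019 humanized). In names ending in 1 they were histone (-0.22 wild-type), long noncoding RNA (0.014 humanized), sterol (-0.11 wild-type, -0.011 humanized) and interferon-stimulated genes (0.037 humanized). The G2 and mitosis medians kept their sign in every setting for which list medians were taken. Of 720 values of named genes, 2, those of Cdca3, were counted as sign changes. Sign changes were counted only for named genes called higher or lower, so those not called were not checked. No paired analysis was possible because each genotype had 1 library. The 38 humanized barcodes limit what can be read from genes of few UMIs.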
